A study of Homo sapiens with 2 samples.

Results

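Isolated narrow peaks of H3K27me3 were described in HCT116, an established human colorectal carcinoma cell line, from 2 ChIP-seq libraries described as biological replicates, which formed 1 group with no treatment named in the labels. ChIP-seq pulls down crosslinked chromatin with an antibody, here against histone H3 trimethylated at lysine 27, and sequences the DNA that comes with it. Reads had been counted per 1 kb bin on hg19, and 53187504 and 97031399 reads were listed in replicates 1 and 2. Levels are read counts divided by the library's mean over autosomal 5 kb bins that hold a read, 97.8 reads in replicate 1 and 178 in replicate 2, and a 1 kb bin is set against the same mean per kb. Bins of 5 kb at level 2 or more in both libraries, merged over gaps of at most 1 bin, gave 13014 autosomal domains. A domain was called an isolated narrow peak when it was 5 to 20 kb long, reached a mean level of 3 in both libraries over its enriched bins and had no other domain within 100 kb. This held for 225 of the 13014 domains, or 1.73%. They covered 2135 kb and held 227371 and 418169 reads, 0.438% and 0.442% of the autosomal reads.

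H3K27me3 is written by Polycomb repressive complex 2, which carries the methyltransferase EZH2 or EZH1, and the mark is read by Polycomb repressive complex 1. In many cell types the mark starts at CpG-rich stretches, often at silent developmental genes, and spreads from there into broad domains through a reader pocket of the complex that binds the mark itself. The peaks described here are short places of raised read level with no other domain called within 100 kb. No genome or gene positions on hg19 were used here, so the peaks are given by position and not by gene, and no sequence is shown. No input library was used here either, so levels are not corrected for copy number or for repeats that the assembly holds in too few copies.

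The values that chose the peaks are given first, as a description. Replicate 1 gave a median level of 3.59 with quartiles of 3.31 and 4.02, and replicate 2 gave 3.53 with 3.24 and 3.95. Most peaks stood just over the limit: 172 of 225 had a mean level under 4, 37 lay from 4 to under 5, and 16 reached 5. A level of 3 corresponded to 294 reads per 5 kb in replicate 1 and 534 in replicate 2, for which the counting error is 5.84% and 4.33% of the level. By length, 93 peaks were 5 kb, 79 were 10 kb, 36 were 15 kb and 17 were 20 kb long, and 12 peaks held a gap bin under level 2.

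The level limit and the distance limit both ran through dense parts of the distribution. The members nearest above level 3 lay on chromosome 11 from 74430001 to 74450000 (3.11 and 3.00 in replicates 1 and 2), chromosome 9 from 112105001 to 112125000 (3.00 and 3.04) and chromosome 12 from 7165001 to 7185000 (3.25 and 3.00). Just under the limit were domains on chromosome 7 from 135210001 to 135225000 (3.08 and 2.996), chromosome 11 from 116995001 to 117000000 (2.99 and 3.19) and chromosome 20 from 40005001 to 40015000 (3.52 and 2.99). At the distance limit, peaks on chromosome 16 from 89700001 to 89705000 (3.67 and 3.98), chromosome 7 from 28220001 to 28235000 (3.84 and 3.49) and chromosome 14 from 34470001 to 34475000 (3.14 and 3.95) had their nearest domain 105 kb away. A distance of 100 kb kept out domains on chromosome 5 from 79025001 to 79035000 (5.98 and 5.71), chromosome 7 from 157940001 to 157945000 (6.02 and 4.64) and chromosome 8 from 64065001 to 64070000 (5.29 and 5.12).

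The placement of the 5 kb bins decided much of the membership. With bins starting 1, 2, 3 or 4 kb later the number of members stayed between 223 and 235, but only 143, 112, 119 and 139 of the 225 peaks were found again. Of the 113 peaks not found again at 2 kb, 75 fell under level 3, 36 then had another domain within 100 kb, 1 grew past 20 kb and 1 overlapped no domain. On all 5 grids 74 of the 225 peaks (32.9%) were members, and 39 were members on the first grid alone. The 74 had a median level of 3.83 and a median summit of 6.99, against 3.45 and 5.41 for the other 151. Scaling each library to its autosomal median in place of its mean gave 245 peaks, and only 18 of the 225 members overlapped one of them. That median was taken over bins with a read, and scaling to it lowers every limit by the same factor, which is not given here. With bins without a read included, the median 5 kb bin is 0.327 and 0.320 of the mean in replicates 1 and 2. The values below describe the peaks that the stated bins and scaling single out, and the tall peaks described further on are all among the 74.

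The rule asks for level 3 in both libraries, which limits how far the libraries can differ, so the ratio between them is a description. The log2 ratio of replicate 2 to replicate 1 had a median of -0.01 and an SD across peaks of 0.11, beside a median of -0.00242 and an SD of 0.12 across all 13014 domains. In 4 of 225 peaks (1.78%) the libraries differed by more than 1.25-fold, against 1.91% of all domains. These 4 lay on chromosome 2 at 85310001 (3.82 and 4.99), chromosome 4 at 26490001 (4.10 and 3.26), chromosome 14 at 34470001 (3.14 and 3.95) and chromosome 1 at 46245001 (3.03 and 3.81), given by their starts and chosen after their values were seen. The share of members that differed was near that of all domains.

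**Figure D1:**
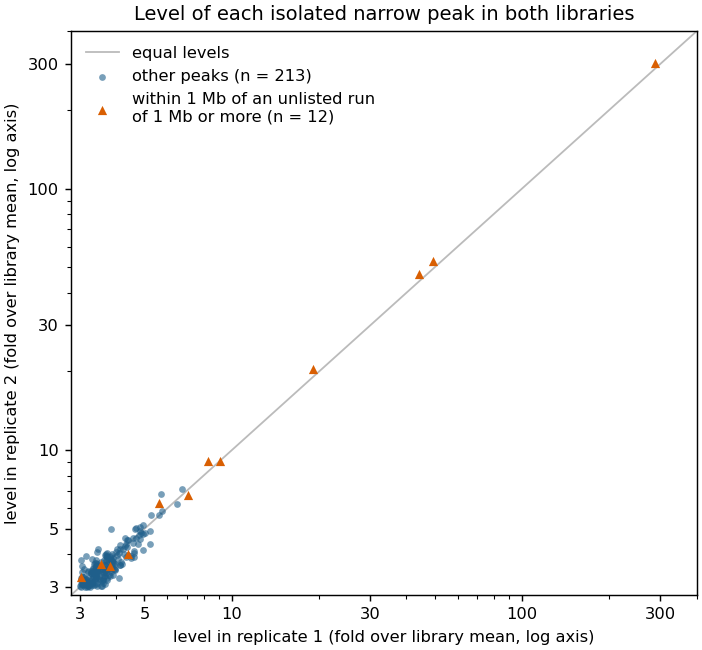
Level of each of the 225 isolated narrow peaks, as fold over the library's mean of autosomal 5 kb bins, in replicate 1 (x axis) and replicate 2 (y axis), both on log axes. Each point is 1 peak and triangles mark the 12 peaks within 1 Mb of a run of at least 1 Mb without reads. Most points sit between 3 and 5 near the line of equal levels, and triangles make up the 6 points above 8, up to 287 and 302.

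A library that took no part in the choice gives the level free of the choice itself. The rule applied to replicate 1 alone found 203 peaks, and in replicate 2 all 203 reached level 2 and 166 reached level 3 (81.8%, exact 95% binomial interval 75.8 to 86.8). Applied to replicate 2 alone it found 224 peaks, of which all reached level 2 in replicate 1 and 188 reached level 3 (83.9%, 78.5 to 88.5). Among all autosomal 5 kb bins, 8.99% reached level 3 in replicate 2 and 9% in replicate 1, while 14.4% and 14.5% reached level 2. The median level was 3.50 in replicate 1 where it chose the peaks and 3.44 in replicate 2, and 3.49 in replicate 2 where it chose them and 3.46 in replicate 1. The lowest levels in the library not used for the choice were 2.45 and 2.26. These intervals treat the peaks as independent and cover counting error only.

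At 1 kb the peaks had a pointed shape. The summit, the 1 kb bin with the highest level inside the peak, had a median of 5.88 in replicate 1 and 5.65 in replicate 2, from 115 and 201 reads. Its position was shared between libraries in many cases: the kb that was highest in each library was the same in 128 of 225 peaks and at most 1 kb apart in 187 (83.1%). Each summit was sought only inside the peak, and 93 of the 225 peaks were 5 kb long. Part of this nearness is thus set by the length of the peaks, and how much was not worked out. In 15 peaks the summits lay more than 3 kb apart. One of these is the peak on chromosome 1 at 145550001, chosen after its values were seen, where they lay 17 kb apart within 20 kb. A summit picked as the highest bin is raised by counting error, so it was also read in the other library. Found in replicate 1 and read in replicate 2 the median summit was 5.36, and found in replicate 2 and read in replicate 1 it was 5.57.

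Read that way, the median level fell on both sides of the summit within a few kb. With the summit found in replicate 1, the levels in replicate 2 were 4.27 and 4.33 at 1 kb to the left and right, 3.06 and 3.23 at 2 kb, 2.22 and 2.42 at 3 kb, and 1.40 and 1.40 at 5 kb. At 10 kb the median was 0.590 and 0.674, at 20 kb 0.477 and 0.477, and at 50 kb 0.281 and 0.253. The autosomal median of 1 kb bins was 0.307 and 0.309 in the libraries, so the typical peak had returned to the ordinary autosomal level at 50 kb. The rule keeps both libraries from reaching level 2 together in the 5 kb bins around a peak and so fixes part of this fall. It also asks for level 3 in both libraries inside the peak, so the levels near the summit are not free of the choice either.

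**Figure D2:**
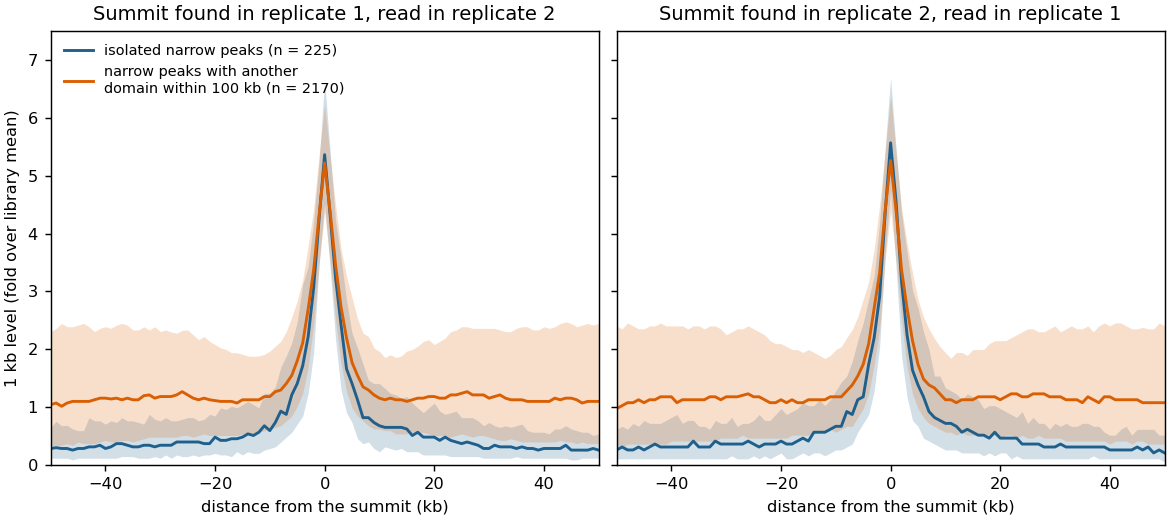
Median 1 kb level (line) and quartiles (band), as fold over the library mean, against the distance in kb from the summit, for the 225 isolated narrow peaks and for 2170 narrow peaks of level 3 or more with another domain within 100 kb. In each panel the summit was found in 1 library and the level read in the other. Both sets reach a median between 5.22 and 5.57 at the summit, and at 50 kb the isolated peaks lie between 0.204 and 0.281 and the others near 1.

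The width of a peak was taken as the run of 1 kb bins around the summit at or above 50% of the summit level. It had a median of 5 kb with quartiles of 3 and 6 kb, and the most frequent value was 4 kb, in 48 peaks. It was 1 or 2 kb in 22 peaks (9.78%), 3 to 5 kb in 123 (54.7%) and 6 kb or more in 80 (35.6%). Counting the height from the flank in place of 0 gave a median of 4 kb. The summit kb held a median of 19.0% of the level summed over the peak, and 7 kb of a typical peak stood at level 2 or more. In 56 peaks (24.9%) every kb of the peak was at level 2 or more, and in 69 (30.7%) the peak included a kb under level 1. These shares were 31.3% and 22.6% in the 2170 narrow peaks with another domain within 100 kb. In 746 isolated narrow domains of level 2 to under 3 they were 7.24% and 30.8%. The sides of the summit were unequal in 47 peaks (20.9%), where the 5 kb on the higher side summed to more than 2 times the lower side. This share was 16.2% in the 2170 narrow peaks with another domain within 100 kb and 14.9% in the 746 isolated narrow domains. In 115 isolated domains of 25 kb or more it was 9.57%.

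The peak whose level equalled the median of all members lay on chromosome 10 from 98550001 to 98555000, at 3.39 in replicate 1 and 3.70 in replicate 2. Its 5 kb held 114, 79, 75, 35 and 29 reads in replicate 1, which are levels of 5.83, 4.04, 3.83, 1.79 and 1.48, and replicate 2 gave 4.66, 4.83, 5.62, 1.85 and 1.55. Both libraries were high over the first 3 kb and low over the last 2 kb. The width was 4 kb, 1 kb of it before the start of the peak, so that the 5 kb bin did not hold the whole of it, and the nearest other domain was 230 kb away.

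The widest peaks were not spikes. The widest, at 14 kb, lay on chromosome 4 from 20675001 to 20690000, at 4.60 and 4.13. Its 15 kb ranged from 1.53 to 7.15 in replicate 1 and from 1.24 to 6.54 in replicate 2, and all kb after the first were over 2.5 in both. Peaks of 12 kb lay on chromosome 5 from 56250001 to 56265000 (4.59 and 4.06) and chromosome 10 from 27625001 to 27645000 (3.44 and 3.55). These were not level throughout: the last kb stood at 0.767 and 1.04 on chromosome 5 and at 0 and 0.112 on chromosome 10. Those of 11 kb lay on chromosome 2 from 45850001 to 45865000 (4.56 and 4.43) and chromosome 5 from 131350001 to 131360000 (4.34 and 4.53). The summits of these 5 widest peaks, 5.45 to 6.11 as means of both libraries, were close to the median summit of all members, 5.79. They were thus wide without being tall. The width is measured against each peak's own summit, so the choice by width in part fixes this.

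**Figure D3:**
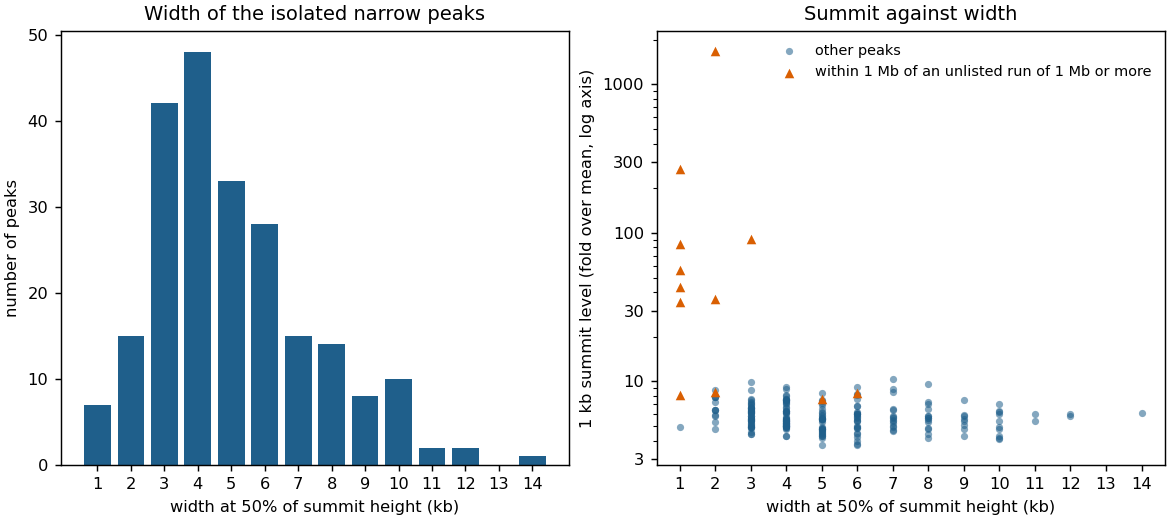
Left, the number of isolated narrow peaks at each width at 50% of the summit level, in kb. Right, the 1 kb summit level (mean of both libraries, fold over the library mean, log axis) against that width, each point 1 peak, with triangles for the 12 peaks within 1 Mb of a run of at least 1 Mb without reads. Peaks of 3 to 14 kb have summits from 3.73 to 10.4 with 1 exception at 91.1, and 7 of the 22 peaks of 1 or 2 kb stand above 30.

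In height the peaks fell into 2 ranges with nothing between them. In 217 peaks the summit, as the mean of both libraries, lay between 3.73 and 10.4, and in 8 it lay between 34.4 and 1682. The limit of 30 used to separate them was chosen after the values had been seen. The plan named runs without reads of 50 kb or more, and the 1 Mb limits used below were not part of it. All 8 tall peaks were 1 to 3 kb wide, 5 of the 7 peaks with a width of 1 kb were among them, and each was one of the 74 peaks found on every grid. All 8 also lay within 1 Mb of a run of at least 1 Mb of 1 kb bins with no read in either library, where the other 217 peaks counted 4 such members (1.84%). Among all domains the share within 1 Mb of such a run was 1.02%, and among listed autosomal 5 kb bins it was 1.37%. Within 100 kb of a run of at least 50 kb, the longer runs included, lay 15 of the 225 peaks (6.67%). This share was 1.2% of all domains and 1.17% of the listed bins. It was 5.22% of 115 isolated domains of 25 kb or more and 2.41% of 746 isolated narrow domains of level 2 to under 3. Among the 2170 narrow peaks with another domain within 100 kb it was 0.922%. No domain can be called in bins without reads, so the distance rule itself favours places beside such runs. The tall peaks on chromosomes 7 and 8 were not among the 15 members, with the nearest such run 228 and 739 kb away. Long stretches that this assembly leaves as gaps lie mostly at and beside centromeres, which are built of satellite repeats. Repeat copies at these peaks were not measured, and their part in the height was not tested.

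The highest peak lay on chromosome 1 from 121480001 to 121490000, at 287 in replicate 1 and 302 in replicate 2 (294 ± 10.5, SD, n = 2). Nearly all of it came from 2 neighbouring kb, with 23875 and 32169 reads in replicate 1 and levels of 1220 and 1644 there, and 1293 and 1720 in replicate 2. The kb before them stood at 2.71 and 2.92, and the 4 kb after them held no read in either library, at the start of a run of 21049 kb without reads. This peak alone made up 24.7% of the reads in all members in replicate 1 and 25.7% in replicate 2. A sum or a mean over the members is thus set by it, and medians are used here.

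The second peak, on chromosome 6 from 58775001 to 58780000, stood at 49.4 and 53.0. Its first kb was at 0.409 and 0.421, and the next 3 were at 49.0, 87.7 and 85.4 in replicate 1 and at 49.7, 91.0 and 96.8 in replicate 2. It ended at a run of 3100 kb without reads, and its nearest other domain was 5420 kb away. The third, on chromosome 7 from 61965001 to 61975000, stood at 44.3 and 47.0, with a summit kb at 258 and 281 and neighbours at 133 and 134 before it and 49.1 and 52.8 after it. Beyond those the levels on both sides were under 2 in both libraries. A run without reads of at least 1 Mb was 911 kb away.

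Of the other tall peaks, those on chromosomes 19, 10, 8 and 18 were composite. The peak on chromosome 19 from 27730001 to 27740000 (19.1 and 20.5) had a kb at 83.8 and 85.9 and, 6 kb farther, another at 47.3 and 50.6, with levels down to 2.10 and 2.36 between them. On chromosome 10 from 42385001 to 42400000 (8.25 and 9.09) the first kb stood at 52.8 and 59.2 and a second spike 11 kb farther at 17.7 and 19.4, with levels down to 0.664 and 1.07 between them. On chromosome 8 from 43090001 to 43100000 (7.06 and 6.74) the peak had kb at 34.0 and 34.8 and, 3 kb farther, at 23.6 and 18.8. That on chromosome 18 from 18510001 to 18525000 (9.12 and 9.07) had its summit at 36.2 and 35.9 and stood at 2 or above in 10 kb. The peak on chromosome 11 from 51570001 to 51580000 (5.61 and 6.27) was mainly 1 spike, with 73.1% of its level in its last kb, at 41.3 and 45.6. In each of these peaks both libraries were high in the same kb.

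Without the 8 tall peaks the median level was 3.53, the median summit 5.66 and the median width 5 kb, over 217 peaks. The values given above for the typical peak therefore did not rest on them.

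**Figure D4:**
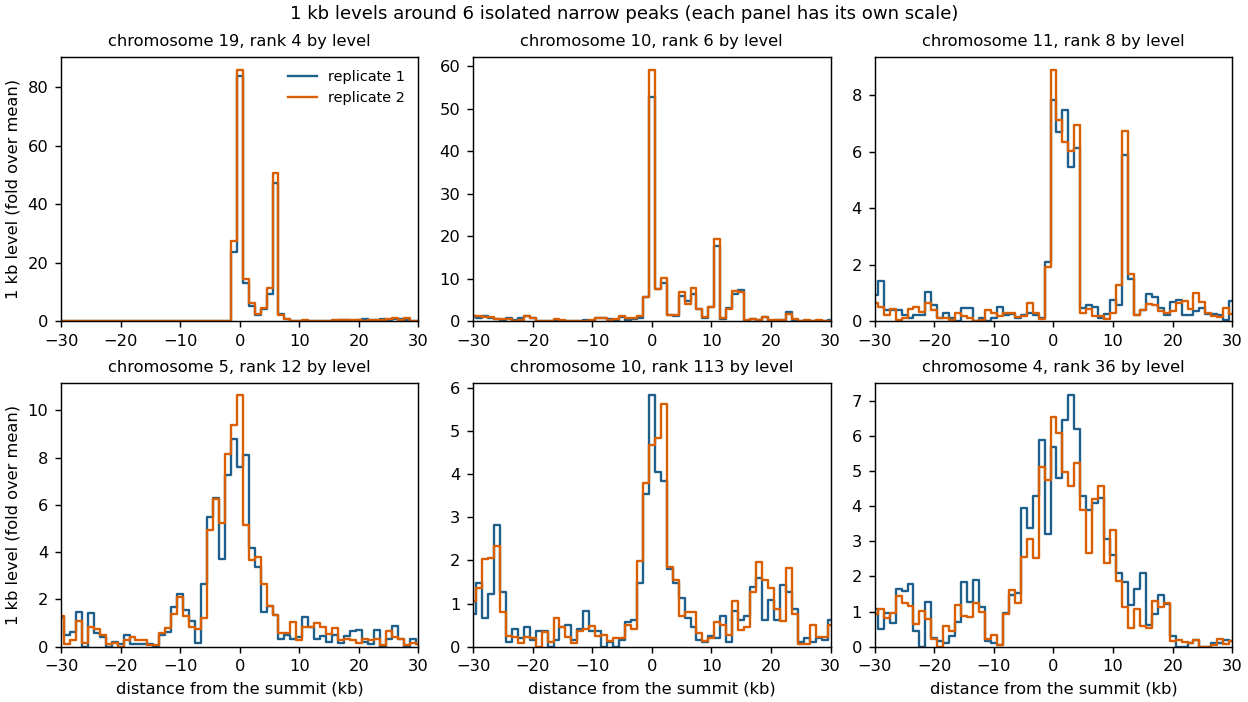
1 kb level, as fold over the library mean, against the distance in kb from the summit for 6 isolated narrow peaks, with replicate 1 and replicate 2 as separate lines and each panel on its own scale. Ranks are by mean level among the 225. The peaks on chromosome 19 and chromosome 10 (rank 6) are made of sharp spikes, the peak on chromosome 11 is a block with steep edges and a spike 12 kb from its summit, the peaks on chromosomes 5 and 10 (rank 113) are rounded, and that on chromosome 4 is a plateau of 14 kb.

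The highest peaks outside that tall range had another form. The peak on chromosome 11 from 114420001 to 114425000 stood at 6.71 and 7.07 (6.89 ± 0.253, SD, n = 2). All of its 5 kb were high, at 7.82, 6.69, 7.46, 5.47 and 6.13 in replicate 1 and 8.90, 7.13, 6.35, 6.04 and 6.94 in replicate 2. It was thus a block with nearly the same level throughout. It was also less isolated at 1 kb than at 5 kb: a kb 12 kb from its summit, outside the peak, stood at 5.88 and 6.74, and the mean level over 1 Mb on either side was 2.07.

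On chromosome 2 from 98015001 to 98025000 the peak stood at 6.47 and 6.25 with a width of 8 kb, and its 10 kb ranged from 3.01 to 10.7 and from 2.92 to 8.40. Around it the median 1 kb bin at 10 to 50 kb was 0, so the peak stood among bins most of which were not listed. The peak on chromosome 16 from 70840001 to 70845000 was at 5.72 and 6.77 (6.25 ± 0.739), the largest SD among the 10 highest peaks after those on chromosomes 1, 6, 7 and 19. Its flank was 0.135 on the left and 1.17 on the right.

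The peak on chromosome 5 from 92940001 to 92950000 stood at 5.75 and 5.84 and is named here after its values were seen, as the highest peak that was also over 1 Mb from any other domain and not tall. Its summit was at 7.61 and 10.6, its width was 4 kb, and the nearest other domain was 1160 kb away. Over 1 Mb on either side the mean level was only 0.281. Both libraries showed it as a rounded peak with 7 neighbouring kb at 5 or more in at least 1 library. It was found on all 5 grids.

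Around the peaks read levels were near the autosomal median, and without an input library background reads were not separated from the mark there. The flank, the median 1 kb level at 10 to 50 kb on both sides, had a median of 0.321 with quartiles of 0.208 and 0.496. It was under 0.5 in 170 peaks (75.6%), 1 or more in 3 and 0 in 9. The summit was a median of 18.1 times the flank, with the 9 peaks on a flank of 0 placed above all others. The highest ratios on flanks above 0 were 346, 400, 665, 773 and 10039, on chromosome 1 at 144525001, chromosome 9 at 66455001, chromosome 10 at 42385001, chromosome 11 at 51570001 and chromosome 7 at 61965001, given by their starts. Their flanks of 0.0198 to 0.0843 are worth a few reads per kb at most, since 1 read is 0.0511 in replicate 1 and 0.0281 in replicate 2, so these ratios are imprecise.

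Isolation depended on the threshold for part of the peaks. In 90 of 225 (40.0%) a 5 kb bin within 100 kb reached level 2 in 1 library but not in both, and in 67 (29.8%) such a bin lay beyond the one that adjoined the peak. The first share was near that of other isolated domains. It was 40.1% of 746 isolated narrow domains of level 2 to under 3, and 49.6% of 115 isolated domains of 25 kb or more. At 1 kb, 136 peaks (60.4%) had no bin within 100 kb outside the peak that reached level 3 in both libraries, and 89 had at least 1. In 51 of these 89 all such bins lay within 5 kb of the edge, and in 61 a bin touched the edge. The other 38 peaks (16.9% of the 225) had such a bin farther than 5 kb from the edge. Whether the bins near the edge continued the peak was not tested. There were 13 peaks (5.78%) with no 5 kb bin at 1 or more, as the mean of both libraries, within 100 kb. The share was 4.16% and 5.22% in the same sets of isolated domains. Of these 13, 6 were tall peaks. Around those on chromosomes 1, 6, 18 and 19, 103 to 185 kb within 100 kb held no read in either library. On chromosomes 7 and 8 this was 53 and 6 kb. Of the 7 that were not tall, the highest was on chromosome 7 from 23515001 to 23525000, at 4.36 and 4.27. It was named after its values were seen, and its highest 5 kb bin within 100 kb was at 0.696.

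The nearest other domain was a median of 185 kb away, with 123 peaks between 105 and 200 kb, 24 beyond 500 kb and 11 beyond 1 Mb. That domain was itself 5 to 20 kb long in 189 of 225 cases, where 69.9% of all domains have such a length, was 25 kb or longer in 36 and 100 kb or longer in 8. In 23 cases it was another isolated narrow peak. The peak farthest from any other lay on chromosome 21 from 9835001 to 9855000 (3.81 and 3.62), with 5820 kb to the nearest domain. That domain lay on its right, and no domain was found on its left. The distance included a run of 3150 kb without reads, where no domain could be found. Another run without reads, of 81 kb, was 10 kb away. Of the next 5, 4 were tall peaks, at 5420, 3210, 3085 and 1200 kb. The remaining one lay on chromosome 1 from 197875001 to 197880000 (3.38 and 3.21), 2965 kb from any other domain. Its summit was at 5.06 and 4.02 and its width was 5 kb.

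The chromosomes held unequal numbers of peaks. Per 100 Mb of listed 1 kb bins, chromosome 19 held 24.4 peaks (13 peaks), followed by chromosome 21 with 14.8 (5 peaks) and chromosome 9 with 12.8 (14 peaks), against 8.65 over the autosomes. The lowest values were 2.19 on chromosome 13 and 2.72 on chromosome 18, with 2 peaks each, and 3.85 on chromosome 15 with 3. On chromosome 19 the peaks made up 4.50% of its 289 domains, against 1.73% over the autosomes. With bins starting 1, 2, 3 or 4 kb later chromosome 19 held 13, 11, 12 and 10 peaks, and with levels scaled to each chromosome 10. It had the highest value in each of these settings but the last shift, where chromosome 21 held 23.7 per 100 Mb and chromosome 19 held 18.8. With levels scaled to each chromosome the order below chromosome 19 changed: chromosome 4 held 31 peaks in place of 9, or 16.96 per 100 Mb in place of 4.92, chromosome 15 held 8 in place of 3, and chromosome 21 fell to 8.88 per 100 Mb. The stretches of chromosomes 8, 10 and 17 beyond 70, 100 and 45 Mb were taken as raised in level, though their levels are not given here. In them lay 8 of the 225 peaks (3.56%), against 6.94% of all domains and 5.52% of listed autosomal 5 kb bins. The distance rule leaves out domains that lie close together, so this share is not free of the rule. Within 2 Mb of a chromosome end lay 12 peaks (5.33%), against 3.67% of all domains and 2.81% of the listed bins.

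**Figure D5:**
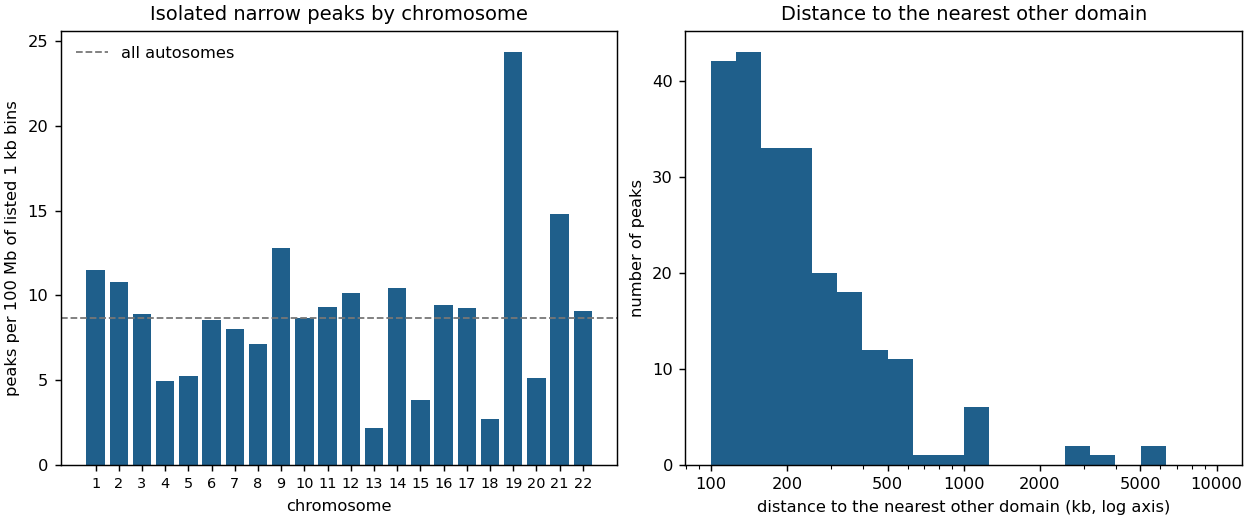
Left, isolated narrow peaks per 100 Mb of listed 1 kb bins for each autosome, with the value over all autosomes, 8.65, as a dashed line. Right, number of peaks by distance to the nearest other domain in kb on a log axis. Chromosome 19 has the highest bar at 24.4, and most peaks lie within 300 kb of another domain with a few beyond 1000 kb.

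A set of 2170 narrow peaks within the same length and level limits, but with another domain within 100 kb, was set beside the members, with nothing else matched. Their median level was 3.56 against 3.55 for the isolated peaks, and their median summit 5.65 against 5.79. Their width was larger, with a median of 6 kb against 5 kb and 51.9% at 6 kb or more against 35.6%. Their flank had a median of 1.09 against 0.321, which the distance rule in part fixes, and their higher flanks can add kb to the width; that was not tested. Summits of 30 or more were 1 of 2170 there and 8 of 225 among the isolated peaks. The mean level over 1 Mb on either side was a median of 1.26 against 0.822. No test was made of these differences, since both sets were chosen by the levels they are compared on.

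Isolated narrow domains of level 2 to under 3 numbered 746. Their median width of 5 kb was that of the members, with 36.5% at 6 kb or more, while their summit of 3.64 and their level of 2.46 were lower as the level limit requires. Isolated domains of 25 kb or more numbered 115, with a median length of 35 kb and a summit of 7.15. Their median level was 3.58, against 3.55 in the isolated narrow peaks, and their median flank was 0.310, against 0.321. The members had to reach level 3 and the longer domains did not, and a summit is the highest of more kb in a longer domain, so these levels and summits cannot be compared directly.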

How the data were processed

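The 2 HCT116 libraries form 1 group. The authors deposited unnormalized read counts in 1 kb bins; bins without a read are not listed. BWA 0.7.12 and hg19 (GRCh37) are named in the submitters' processing notes. How reads were filtered and counted was not given in the sources used here.

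Counts were summed to 5 kb bins of chromosomes 1 to 22. Gap bins do not enter a domain's level. A run of 50 kb or more of 1 kb bins without reads in both libraries was called unlisted. The limits of 1 Mb for the length of a run and the distance to it were not planned. The peaks, the rule and the lists were chosen with earlier results of these data known. Named peaks are the 10 highest in level, the 5 narrowest, the 5 widest, the 5 with the highest summit over flank and those at both limits; others are marked as chosen later. No test between groups was possible. If the replicates are not separate cultures, their spread may be technical. The shares recovered in the library not used carry exact 95% binomial intervals, for counting error only; other shares are counts of peaks without an interval. Totals of 53187504 and 97031399 reads set the precision. The procedure was tested on simulated data with planted peaks. Alternatives changed the bins, gaps, limits, scaling, flank and summit, and each replicate was left out; the tall peaks and further bin shifts were added after the data were seen. Gene positions and a genome on hg19 were not used here, so gene starts and CpG content were not run. Tools were scipy 1.17.1, numpy 2.4.6, pandas 2.3.3 and matplotlib 3.10.9 under Python 3.11.15.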

Additional observations from a re-analysis of the deposited data

Results flagged for a closer look

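Chromosome X was outside the rule and was read with the same limits and the autosomal means. It held 4 isolated narrow domains, which is signal in data the report did not use, each with far more than the 3 reads that a count of 0 allows. The highest, from 58560001 to 58565000, stood at 4.74 in replicate 1 and 4.61 in replicate 2, and 97.2% of its level came from 1 kb at 22.9 and 22.5. Within 100 kb of it, 125 kb held no read in either library, and its flank was 0. The others started at 68105001 (3.98 and 3.62), 123370001 (3.80 and 3.53) and 152880001 (3.27 and 3.28), with widths of 6 or 7 kb and summits of 5.16, 5.02 and 3.60 as means of both libraries. The first was a spike of 1 kb and the other 3 were broader than the median autosomal member.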

How the results depend on the processing

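Of 36 alternatives, 18 left a result the same, within 1.5 times for a number and within 1 SD of the replicates (or the binomial interval) otherwise, and 18 moved it. The 225 peaks became 471 at a level of 2.5, 46 at a level of 4, 419 with a distance of 50 kb and 102 with 200 kb; with the other settings they numbered 203 to 245, and 203 to 224 with a replicate left out. The number hides a change of peaks: 140 of the 225 were kept when scaled to the same chromosome, 190 without replicate 1 and 167 without replicate 2. The median level of 3.55 became 3.65 scaled to the same chromosome and 3.49 to 3.50 with a replicate left out. The median summit of 5.79 became 5.36 found in replicate 1 and read in replicate 2 and 5.57 the other way, and 5.66 to 5.88 with a replicate left out. The median width of 5 kb became 4 kb at 50% of the rise above the flank, and 4 kb when either replicate was left out. The summit over flank of 18.1 became 23.7 with the flank at 50 to 100 kb, 17.1 without the tall peaks, and 17.8 to 19.1 with a replicate left out. The recovery of 81.8% and 83.9% became 100% both ways at level 2 in the library not used. The cause was not tested. No paired analysis was possible because both libraries belong to a single group. The alternatives on gene starts and CpG were not run.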
